A study of Mus musculus with 43 samples.

Results

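The Reg (regenerating islet-derived) genes encode small secreted proteins of the C-type lectin fold, and the account below follows 5 of them, Reg1, Reg3a, Reg3b, Reg3g and Reg4, chosen by symbol and not by their values. They are 5 of the 23951 genes in the expression tables and 5 of the 54307 gene rows of each single-cell library, and all 5 were found in every table and library. The bulk RNA-seq covered wild-type C57BL/6 primary intestinal organoids, which are cultured epithelium that grows without stroma or immune cells, in 6 groups of 3 libraries. The first pair of groups was not irradiated and was collected on day 7 (D7 non-IR), the second was given 4 Gy on day 4 and collected on day 7 (D7 IR), and the third was given the same dose on day 4 and collected on day 11 (D11 IR). Within each pair, 1 group received vehicle and the other 2 ng/mL TGFB1 (transforming growth factor beta 1) for 24 h from day 6, so the D11 libraries were taken days after the treatment had ended. The single-cell libraries came from D8 organoids (4 Gy on day 4) with 1 ng/mL TGFB1 for 6, 15 or 24 h or with vehicle (0 h), in 1 library each. Others came from Ki67-RFP+ crypt cells sorted from the proximal small intestine of Mki67tm1.1Cle/J reporter mice, with 1 library from non-irradiated littermates and 2 libraries taken 56 h after 12 Gy to the whole body. Ki67 marks cycling cells, so the sort sets which cell types are present, and a wider strainer was used for the irradiated crypts than for the others, per the labels.

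Reg3b and Reg3g are bactericidal lectins that the small intestine secretes into the mucus, where they keep bacteria away from the epithelium. Their genes are known to be switched on through interleukin receptors that signal by JAK kinases and STAT3, and through Toll-like receptors and the adaptor MyD88. Reg1 is known from the exocrine pancreas and the upper gut and is used as a sign of mucosal injury and regrowth, Reg3a is a close relative of Reg3b and Reg3g, and Reg4 is a marker of secretory cells of the intestinal crypt.

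Sequences of the promoters are given first, to show how alike the genes are that the results set side by side. Along chromosome 6 the order was Reg3b, Reg3d, Reg3a, Reg2, Reg1 and Reg3g, and Reg4 lay apart on chromosome 3. The 250 bases before the annotated start, 5′ to 3′ on the strand of the gene, were taken from RefSeq (GRCm38.p6) for 4 of the members. They lie at chr6:78370635-78370884 on the plus strand (Reg3b), chr6:78468875-78469124 on the minus strand (Reg3g), chr6:78425733-78425982 on the plus strand (Reg1) and chr3:98221906-98222155 on the plus strand (Reg4). Capitals mark TATAAA, the letters of a TATA box, which read TTTATA where they are on the other strand. They also mark CACCTG, letters of the E-box type.
Reg3b: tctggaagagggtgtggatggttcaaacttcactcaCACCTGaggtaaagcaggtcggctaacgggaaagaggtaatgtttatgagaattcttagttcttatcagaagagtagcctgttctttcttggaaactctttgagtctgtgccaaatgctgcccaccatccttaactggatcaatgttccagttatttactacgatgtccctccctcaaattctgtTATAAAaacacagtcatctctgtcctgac
Reg3g: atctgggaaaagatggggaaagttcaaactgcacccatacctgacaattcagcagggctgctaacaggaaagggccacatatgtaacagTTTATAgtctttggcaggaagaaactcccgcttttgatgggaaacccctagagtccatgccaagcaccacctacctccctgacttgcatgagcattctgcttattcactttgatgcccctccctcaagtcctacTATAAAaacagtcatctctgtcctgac
Reg1: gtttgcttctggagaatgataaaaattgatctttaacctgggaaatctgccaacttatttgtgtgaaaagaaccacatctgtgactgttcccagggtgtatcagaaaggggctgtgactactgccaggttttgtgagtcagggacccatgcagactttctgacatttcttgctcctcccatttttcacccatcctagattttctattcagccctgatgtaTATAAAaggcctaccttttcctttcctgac
Reg4: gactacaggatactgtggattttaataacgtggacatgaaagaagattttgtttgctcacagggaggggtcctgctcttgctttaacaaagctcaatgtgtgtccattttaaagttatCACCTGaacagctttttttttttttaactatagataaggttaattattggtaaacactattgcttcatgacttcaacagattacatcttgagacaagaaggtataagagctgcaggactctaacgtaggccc

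The promoters of Reg3b and Reg3g were the most alike of the 5. In a global alignment, 175 of 254 columns were identical (68.9%), against 47.6 to 54% for the other 9 pairs of members. Their last 20 bases before the start, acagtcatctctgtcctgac, were the same letter for letter, and this run was found in 2 of 32851 RefSeq promoter windows. TATAAA stood 30 to 25 bases before the start in Reg1, 29 to 24 in Reg3b and 27 to 22 in Reg3g, and Reg3g had the word once more on the opposite strand, 161 to 156 bases before the start. It was thus in 3 of 5 members, and 12.4% of all windows held it on either strand. CACCTG was in 3 of 5 members (Reg3a, Reg3b and Reg4), with a share of 17.2% of all windows. The SMAD word CAGAC was in 3 of 5 (Reg1, Reg3a and Reg3b), with a share of 42.2%. The STAT word TTCNNNGAA was in 1 of 5, Reg3b, as TTCTTGGAA 129 to 121 bases before the start, with a share of 7.02%. Both strands were searched for all 4 words, no match of 1 word overlapped a match of another in the 5 members, and a match is a description of letters, not of binding.

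In organoids that had received vehicle, Reg1, Reg3a and Reg3b were far higher in the irradiated D7 libraries than in the non-irradiated ones, while Reg3g and Reg4 lay within 1.5-fold. Reg1 read 69.9, 56.4 and 59.2 FPKM (fragments per kilobase of transcript, scaled to the size of the library) without irradiation and 1623, 1758 and 1686 FPKM with it, a ratio of means of 27.3. Reg3b read 34.7, 36.7 and 41.3 FPKM without irradiation and 299, 320 and 431 FPKM with it, a ratio of 9.32. Reg3a, at lower levels, read 12.4, 11.7 and 11.8 FPKM without irradiation and 121, 114 and 133 FPKM with it, a ratio of 10.2. In each of these genes every irradiated library stood far above every non-irradiated one. Reg3g read 137, 154 and 156 FPKM without irradiation and 191, 188 and 204 FPKM with it, a ratio of 1.30. Reg4 went the other way, from 272, 274 and 289 FPKM to 208, 205 and 211 FPKM, 1.34-fold lower. The groups lie in tables that were scaled separately, so there was no test of these differences, and non-overlap alone was common, since the groups did not overlap for 85% of the 11235 genes compared. A level at least 2-fold higher without overlap was found for 9.87% of genes and for 3 of the 5 members, and 40 genes had a larger ratio than Reg1. Among TGFB1-treated libraries the ratios of irradiated to non-irradiated means were 88.2 for Reg1, 30.0 for Reg3a, 32.5 for Reg3b and 5.12 for Reg3g, and Reg4 was 1.09-fold lower. There 84.1% of 11403 genes did not overlap, 11.6% were at least 2-fold higher without overlap, and 4 of the 5 members were.

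In irradiated vehicle organoids Reg1, Reg3a and Reg3b were lower at D11 than at D7, and Reg3g and Reg4 were higher. There was no non-irradiated D11 group, so these levels were compared between days and not with a control of the same day. In D11 vehicle libraries Reg1 read 207, 219 and 389 FPKM, 6.22-fold lower than at D7. Reg3a read 14.8, 17.5 and 31.8 FPKM (5.74-fold lower) and Reg3b read 38.5, 32.2 and 60.8 FPKM (7.98-fold lower). Reg3g was higher at D11, at 281, 268 and 547 FPKM (1.88-fold), as was Reg4, at 304, 335 and 401 FPKM (1.67-fold). No member's D11 and D7 vehicle libraries overlapped, as for 66.9% of genes, and 4.2% of genes were at least 2-fold lower without overlap. The third D11 vehicle library had the highest level of all 5 members. It also had the highest sum over 12 enterocyte markers (3711, 4283 and 6494 FPKM in libraries 1 to 3), and the part of this in the members' levels was not tested.

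The order of the 5 genes by level, which FPKM allows because it is per length, changed with irradiation. In D7 non-IR vehicle libraries Reg4 was highest, followed by Reg3g, Reg1, Reg3b and Reg3a, with no overlap between neighbours in this order. In D7 IR vehicle libraries the order was Reg1, Reg3b, Reg4, Reg3g and Reg3a, where Reg4 (205 to 211 FPKM) and Reg3g (188 to 204 FPKM) were close. There Reg1 ranked 30th of 23951 genes by mean FPKM, from 1588th in non-irradiated vehicle organoids. At D11, Reg3g, Reg4 and Reg1 overlapped with each other in vehicle libraries. The 5 genes together took up 0.100 to 0.106% of the summed FPKM of D7 non-IR vehicle libraries, 0.443 to 0.470% of D7 IR vehicle libraries and 0.164 to 0.269% of D11 vehicle libraries.

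**Figure D1:**
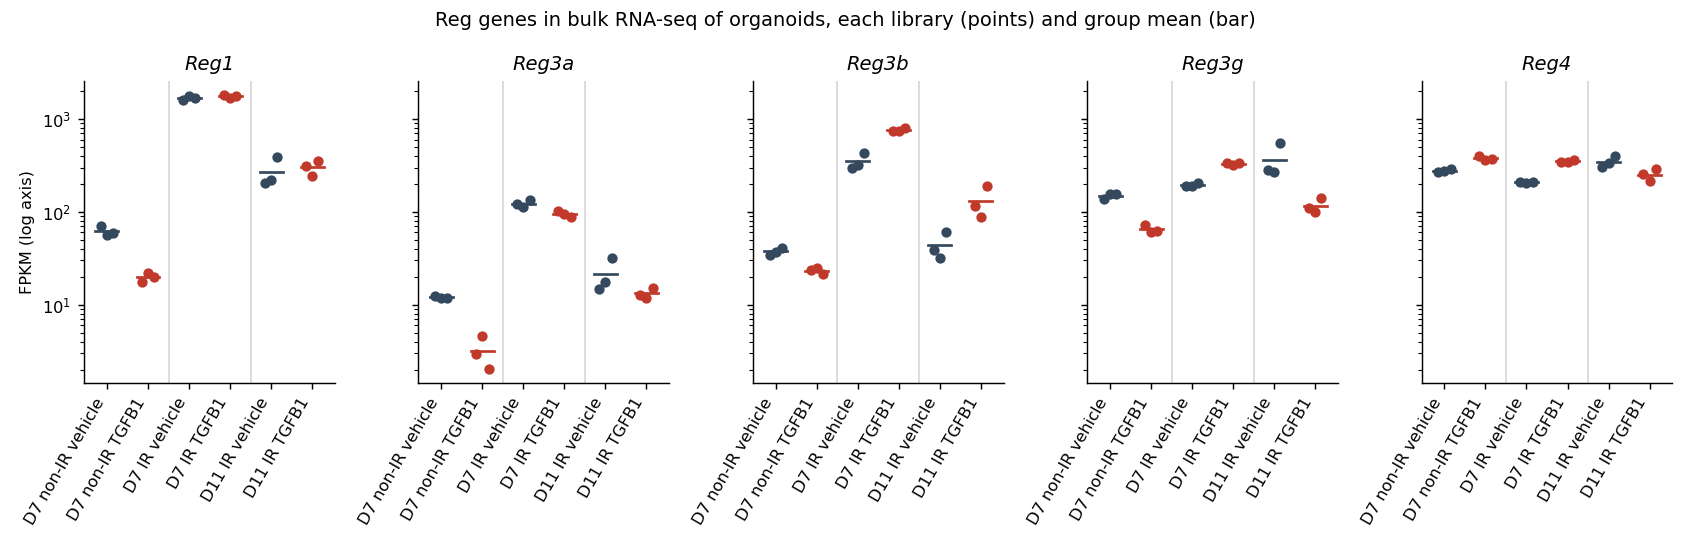
FPKM (log axis) of the 5 Reg genes in each of the 18 bulk RNA-seq libraries of organoids; points are libraries, bars are group means, dark blue is vehicle, red is TGFB1, and grey lines separate the 3 tables. Reg1 stands at 1623 to 1830 FPKM in both D7 IR groups and at 17.7 to 69.9 FPKM in the D7 non-IR groups, and Reg4 stays between 205 and 405 FPKM throughout.

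The TGFB1 treatment was then compared with vehicle within each table. In non-irradiated organoids 4 members fell and Reg4 rose. All 5 passed the test (limma, adjusted p under 0.05 over all genes tested), against a background of 68.2% of 11330 genes called, 33.3% higher and 34.9% lower, so the number of calls is near that of genes at large. Reg3g fell from 137, 154 and 156 FPKM to 71.4, 60.8 and 61.8 FPKM, by 1.19 on the log2(FPKM + 1) scale (SE 0.070, adjusted p = 3.84e-07). Reg3b fell less, from 34.7, 36.7 and 41.3 FPKM to 23.5, 24.8 and 21.5 FPKM, by 0.67 (SE 0.067, adjusted p = 8.8e-06). The vehicle and TGFB1 libraries were apart in both genes. Reg1 fell to 17.7, 21.98 and 20.1 FPKM, 3.10-fold below vehicle, by 1.58 on the log2 scale (SE 0.094, adjusted p = 1.1e-06). Reg3a fell to 2.94, 4.55 and 2.02 FPKM, 3.77-fold below vehicle, by 1.68 (SE 0.22, adjusted p = 0.000797). Reg4 rose to 405, 363 and 373 FPKM, 1.37-fold (log2 change 0.45, SE 0.043, adjusted p = 4.68e-06).

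In irradiated organoids at D7 the same treatment went with higher Reg3b, Reg3g and Reg4, lower Reg3a, and Reg1 that stayed at its high level. Of the members 3 rose and 1 fell, where 75.5% of 11258 genes were called, 35.8% higher and 39.7% lower. Reg3b rose from 299, 320 and 431 FPKM to 743, 737 and 793 FPKM, 2.16-fold (log2 change 1.13, SE 0.14, adjusted p = 0.00059). Reg3g rose from 191, 188 and 204 FPKM to 337, 320 and 336 FPKM, 1.71-fold (log2 change 0.77, SE 0.042, adjusted p = 4.44e-08). All TGFB1 libraries of both lectins stood above all vehicle libraries. Reg4 rose to 347, 343 and 360 FPKM, 1.68-fold (log2 change 0.75, SE 0.035, adjusted p = 1.44e-08). Reg3a fell to 103, 93.8 and 88.1 FPKM, by 0.36 on the log2 scale (SE 0.069, adjusted p = 0.000937), a call that was lost when all 18 libraries were fitted together (adjusted p = 0.191). Reg1 read 1830, 1671 and 1772 FPKM with TGFB1, overlapping with vehicle (log2 difference 0.06, SE 0.045, adjusted p = 0.269). Under quantile normalization of the libraries the sign for Reg1 turned, to -0.23 with an adjusted p of 0.000454.

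At D11, days after the treatment, Reg3b was still higher in the TGFB1 libraries while Reg3g was lower. Of 11479 genes 63.9% were called there (32.3% higher, 31.6% lower), and 3 of the 5 members were, 1 higher and 2 lower. Reg3b read 38.5, 32.2 and 60.8 FPKM with vehicle and 117, 89.0 and 189 FPKM with TGFB1, 3.00-fold higher (log2 change 1.54, SE 0.37, adjusted p = 0.0157). Reg3g read 281, 268 and 547 FPKM with vehicle and 111, 99.6 and 141 FPKM with TGFB1, 3.12-fold lower (log2 change -1.57, SE 0.29, adjusted p = 0.00315). The libraries did not overlap in either gene, so the pair with the most alike promoters moved in opposite directions at this time. Reg4 read 253, 213 and 288 FPKM with TGFB1, 1.38-fold below vehicle (log2 change -0.46, SE 0.14, adjusted p = 0.0153). Reg1 (313, 246 and 354 FPKM) and Reg3a (12.7, 11.8 and 15.1 FPKM) overlapped with vehicle and were not called (adjusted p = 0.485 and 0.115). Single libraries decided several of these calls. Reg3b was not called without vehicle library 1 or TGFB1 library 1 (adjusted p = 0.0644 and 0.0529), nor Reg4 without vehicle library 3 or TGFB1 library 2 (adjusted p = 0.0553 and 0.0694) or under quantile normalization (adjusted p = 0.152). Without vehicle library 3, Reg1 was called higher with TGFB1 (log2 change 0.50, adjusted p = 0.0201), and without vehicle library 1, Reg3a was called lower (log2 change -0.80, adjusted p = 0.0395).

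**Figure D2:**
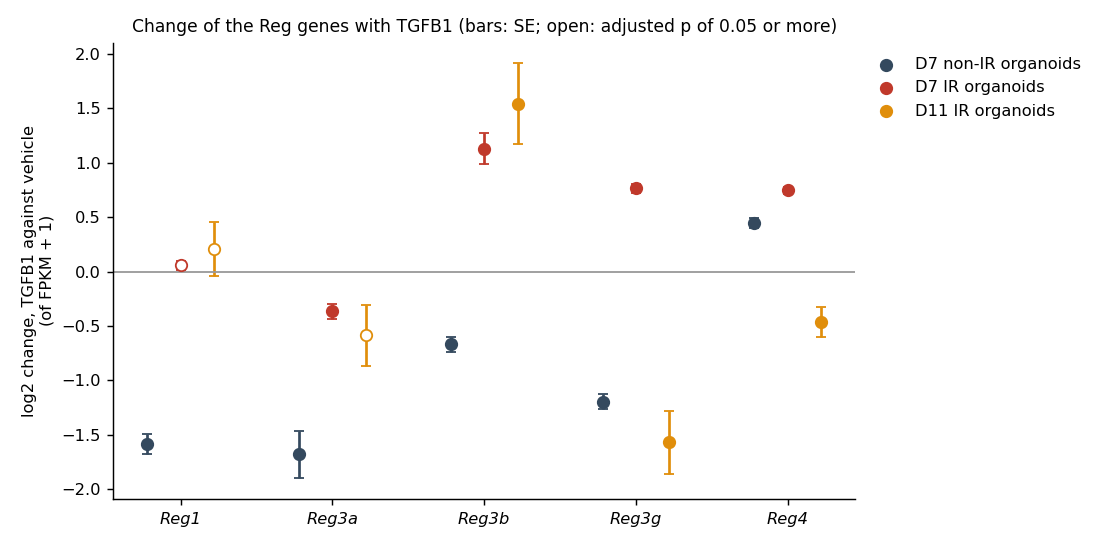
Log2 change of FPKM + 1 with TGFB1 against vehicle (limma estimate, 3 libraries per group; bars are SE) for the 5 Reg genes in the 3 conditions; filled points have an adjusted p under 0.05, open points do not. From left to right, Reg3b lies at -0.67, 1.13 and 1.54 and Reg3g at -1.19, 0.77 and -1.57.

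Whether the response to TGFB1 differed between conditions was tested by interaction terms. From these a factor common to a table cancels, except at levels near the 1 FPKM added before the log. Reg3a came nearest to it, at 2.02 to 4.55 FPKM in D7 non-IR TGFB1 libraries. Between irradiated and non-irradiated D7 organoids the change with TGFB1 was more positive after irradiation for all 5 members, where 53.1% of 11411 genes were called, 25.3% in this direction and 27.8% in the other. The difference was 1.96 for Reg3g (SE 0.087, adjusted p = 7.58e-10), 1.80 for Reg3b (SE 0.17, adjusted p = 9.24e-06), 1.64 for Reg1 (SE 0.11, adjusted p = 1.39e-07), 1.32 for Reg3a (SE 0.26, adjusted p = 0.00189) and 0.30 for Reg4 (SE 0.057, adjusted p = 0.000538), all in log2 units. The call for Reg4 was lost with all 18 libraries in 1 fit (adjusted p = 0.0839). Between D11 and D7 irradiated organoids the change was more negative at D11 for Reg3g, by -2.34 (SE 0.33, adjusted p = 9.63e-05), and for Reg4, by -1.21 (SE 0.15, adjusted p = 9.92e-06), where 64.5% of 11456 genes were called, 33% in this direction and 31.5% in the other. For Reg1, Reg3a and Reg3b the difference between days was not called (0.15, -0.22 and 0.42, adjusted p = 0.652, 0.564 and 0.406). Without D11 vehicle library 3 that of Reg1 was called (0.44, adjusted p = 0.0306).

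Cell type markers moved in these groups too, those of enterocytes among them. The summed FPKM of 12 enterocyte markers, none of them at 0 in any group, ranged from 3716 to 3888 with vehicle and from 1594 to 1730 with TGFB1 in D7 non-IR organoids, where 11 of the 12 fell and 1 rose. It ranged from 15070 to 16055 with vehicle and from 21580 to 22415 with TGFB1 in D7 IR organoids, where 5 rose and 5 fell, and at D11 from 3711 to 6494 with vehicle and from 2324 to 2720 with TGFB1, where 7 fell and 1 rose. The sum over 12 enteroendocrine markers went from 616 to 652 FPKM to 651 to 674 FPKM in D7 non-IR organoids, from 960 to 1077 FPKM to 2464 to 2759 FPKM in D7 IR organoids, and from 1341 to 1631 FPKM to 703 to 813 FPKM at D11. In bulk samples, fewer cells of a type and less RNA per cell cannot be told apart, and the part of these markers in the members' changes was not tested. The sum over 8 immune markers went from 26.3 to 30.1 FPKM to 81.6 to 90.9 FPKM in D7 non-IR, from 4.65 to 5.73 FPKM to 12.8 to 14.9 FPKM in D7 IR and from 3.20 to 5.74 FPKM to 6.01 to 10.2 FPKM in D11 organoids, and in the D7 non-IR libraries most of it was Cd74 (24.3 to 89.4 FPKM), which epithelium also expresses. Of the other immune markers, the lymphoid Cd3e and Cd79a and the pan-leukocyte Ptprc stayed at or under 0.12 FPKM in all libraries, but the myeloid markers did not stay level. In D7 IR organoids Csf1r ranged from 0.293 to 0.422 FPKM with vehicle and from 1.20 to 1.501 FPKM with TGFB1, Lyz2 from 2.57 to 3.47 FPKM and from 8.48 to 9.27 FPKM, and Tyrobp reached 0.29 and 0.49 FPKM, while Itgam went from 0.99 to 1.17 FPKM to 0.43 to 0.75 FPKM.

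The sum over 8 mesenchymal markers ranged from 4.399 to 4.94 FPKM with vehicle and from 4.73 to 5.35 FPKM with TGFB1 in D7 non-IR, from 4.19 to 5.34 FPKM and from 7.28 to 10.1 FPKM in D7 IR, and from 4.90 to 6.85 FPKM and from 2.83 to 4.21 FPKM in D11 organoids. Vim (1.23 to 6.57 FPKM over all libraries) made up much of it, and in D7 IR organoids Acta2 went from 0.332 to 0.558 FPKM to 2.56 to 4.14 FPKM and Col1a1 from at most 0.015 FPKM to 0.211 to 0.576 FPKM. Col1a2, Col3a1, Dcn and Pdgfra stayed at or under 0.074 FPKM in all libraries. The part of the immune and mesenchymal markers in the members' changes was not tested.

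Markers of secretory, cycling and regenerative cells moved in these groups as well. The sum over 8 Paneth cell markers ranged from 15603 to 16209 FPKM with vehicle and from 13580 to 14948 FPKM with TGFB1 in D7 non-IR organoids, where 1 rose and 5 fell. It ranged from 4728 to 5432 FPKM and from 8345 to 8479 FPKM in D7 IR organoids, where 7 rose and none fell, and from 3143 to 3902 FPKM and from 4581 to 5879 FPKM at D11, where 5 rose and 1 fell. Of 8 goblet cell markers 7 fell without irradiation (6282 to 6645 FPKM, then 4714 to 5111 FPKM) and 7 at D7 after it (2586 to 2632 FPKM, then 2212 to 2403 FPKM), and 2 rose and 4 fell at D11. Of 8 proliferation markers 1 rose and 6 fell in D7 non-IR organoids, all 8 fell in D7 IR organoids (454 to 474 FPKM, then 153 to 176 FPKM), and 2 rose and none fell at D11. Of 9 regenerative markers 9 rose without irradiation (655 to 687 FPKM, then 5100 to 5353 FPKM), 8 at D7 after irradiation and 9 at D11. The part of these markers in the members' changes was not tested either.

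The remaining Reg genes were low. Reg2 was listed at 0 in most libraries and reached 0.48 FPKM at most. Reg3d, the neighbour of Reg3b, read at most 0.13 FPKM in non-irradiated libraries, 3.10, 2.68 and 2.26 FPKM in D7 IR vehicle libraries and 1.32, 1.98 and 1.44 FPKM in D7 IR TGFB1 libraries, a fall of 0.52 on the log2 scale (SE 0.12, adjusted p = 0.00228). Like Reg3b, Reg3d was higher after irradiation, but with TGFB1 it fell where Reg3b rose.

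Over the 18 libraries, log2 levels of Reg1 ran closest with Reg3a (Pearson r = 0.956) and Reg3b (r = 0.923), and those of Reg3b less closely with Reg3g (r = 0.539). Reg4 ran with none of them (r between -0.395 and 0.0764). The libraries fall into 6 groups, so these values describe the group pattern and carry no p. Among the 11472 genes that averaged 1 FPKM or more over the 18 libraries, those most like Reg1 were Ltbr, the lymphotoxin beta receptor (r = 0.9916), Slc6a20a, an amino acid transporter (r = 0.9915), and Sec31a, a coat protein of secretory vesicles (r = 0.9869). For Reg3a they were Treh, the brush border trehalase (r = 0.993), Slc25a45 (r = 0.9925) and Fabp2, the intestinal fatty acid binding protein (r = 0.9923). For Reg3b they were Cd36, a fatty acid receptor (r = 0.9825), C77080 (r = 0.9777) and Naa60 (r = 0.9776). For Reg3g (Eppk1, Uaca and Tbc1d9b, r from 0.9416 to 0.9504) and Reg4 (Pold4, Ezr and Rras, r from 0.9138 to 0.931) the likeness was lower.

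Genes of the route that is known to switch on the lectins were read from a list of 19 receptors and signalling genes, of which 15 were tested. Of these, 10 rose and 1 fell with TGFB1 in D7 non-IR organoids, 12 rose and 1 fell in D7 IR organoids, while at D11 there were 9 that rose and 3 that fell, with medians of 0.16, 0.35 and 0.34 on the log2 scale against -0.017, -0.028 and 0.014 over all genes. Il22ra1, the epithelial subunit of the receptor for interleukin 22, rose in all 3 conditions, from a mean of 4.56 to 8.76 FPKM in D7 non-IR (log2 change 0.81, adjusted p = 3.55e-07), from 19.3 to 45.7 FPKM in D7 IR (1.20, adjusted p = 6.67e-09) and from 7.93 to 24.6 FPKM in D11 organoids (1.51, adjusted p = 6.25e-06). Tlr2, a Toll-like receptor for bacterial lipoproteins, rose by 1.81, 1.14 and 1.33 in the same order, and Il18r1, a receptor chain for interleukin 18, by 0.94, 1.11 and 0.96. Both were low, so the added 1 FPKM makes these changes smaller than the ratios of means. Tlr2 went from means of 0.565, 0.555 and 0.536 FPKM to 4.47, 2.43 and 2.88 FPKM. Il18r1 went from 0.369, 0.390 and 0.384 FPKM to 1.64, 2.01 and 1.72 FPKM. All 3 receptors rose also in non-irradiated organoids, in which Reg3b and Reg3g fell. The part of this route in the members' changes was not tested.

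Known target genes of STAT3 and interleukin 22 were taken from a list of 18. As over the route above, these counts stand beside 33.3% of all genes higher and 34.9% lower without irradiation, 35.8% and 39.7% at D7 after it, and 32.3% and 31.6% at D11. In D7 non-IR organoids 7 of the 12 tested rose and 3 fell (median log2 change 0.56), with Il4ra, an interleukin receptor chain, by 2.03, Pim1, a kinase, by 1.67 and Duoxa2, a maturation factor of the dual oxidase Duox2, by 1.66. In D7 IR organoids 10 of 13 rose and 2 fell (median 1.497), with Lcn2, an iron-scavenging antibacterial protein, by 2.79, Saa3, an acute phase protein, by 2.46 and Duoxa2 by 2.43. Lcn2 and Saa3 were low there, with means of 0.333 and 0.576 FPKM with vehicle and 8.17 and 7.76 FPKM with TGFB1. At D11 3 of 12 rose and 3 fell (median 0.03), with Fut2, a fucosyltransferase, up by 1.27, Bcl3, a regulator of NF-kB, up by 1.09 and Nos2, the inducible nitric oxide synthase, at -1.14. At D11 the median of the list was near that of all genes, and Reg3b was 3.00-fold higher there. Whether STAT3 signalling had a part in the members' changes was not tested. Nos2, which is also in the antimicrobial list, had the sign pattern of Reg3g, falling in D7 non-IR organoids (log2 change -1.65), rising in D7 IR organoids (1.497) and falling at D11 (-1.14), with an irradiation interaction of 3.15 and a day interaction of -2.63.

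Other antimicrobial proteins of the gut were taken from a list of 24, of which 21 were in the tables. The shares of all genes called in each direction, given for the STAT3 targets, hold for this list and for the acinar genes too. In D7 non-IR organoids 2 of the 15 tested rose and 9 fell (median log2 change -0.34), the largest falls being those of Zg16, a goblet cell lectin (-2.38), Nos2 and Pigr, the receptor that carries IgA to the lumen (-1.33). In D7 IR organoids 12 of 18 rose and 2 fell (median 0.76), among them Lypd8, a protein that holds flagellated bacteria off (1.81, from a mean of 1472 to 5171 FPKM). At D11 8 of 17 rose and 4 fell (median 0.41), with Lypd8 at 1.09 and Pigr at -1.71. Reg1 is also a product of pancreatic acinar cells. Of 15 acinar genes most were under the filter on low values. In D7 non-IR organoids 1 of the 5 tested rose and 2 fell, in D7 IR organoids 3 of 4 rose and 1 fell, and at D11 2 of 4 rose and 1 fell. Ctrb1, a chymotrypsinogen, rose from a mean of 2.26 to 414 FPKM and from 70.4 to 2612 FPKM with TGFB1 and fell from 22.7 to 11.1 FPKM at D11. Bhlha15, a transcription factor of acinar and other secretory cells, went the other way, with log2 changes of -0.59, -0.67 and 0.47. Reg1 did not share the rise of Ctrb1 in either D7 condition.

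In single cells of irradiated D8 organoids, Reg3b was higher and Reg1 lower at the later times of TGFB1. Levels are counts of UMIs (unique molecular identifiers, 1 per captured RNA molecule) summed over the cells of a library and scaled to the same library total (CPM). The libraries held 2932, 4283, 2890 and 2218 cells at 0, 6, 15 and 24 h, with median depths of 6709 to 10441 UMIs. With 1 library per time there was no test between times, and the intervals given cover counting error only. Reg3b stood at 549 CPM at 0 h, 1068 CPM at 6 h, 2897 CPM at 15 h and 2446 CPM at 24 h, the largest step being that between 6 and 15 h. Reg3g stood at 241, 210, 380 and 527 CPM in the same order, with no rise at 6 h. The share of cells with a UMI, after each cell was thinned to 2000 UMIs, went from 25.1% to 54.1% for Reg3b and from 21.8% to 32.3% for Reg3g between 0 and 24 h. Reg1 stood at 6099, 5484, 4162 and 3141 CPM, 1.94-fold lower at 24 h than at 0 h, and its share of cells was 65.4% at 0 h and 59.5% at 24 h. It was the 8th gene by CPM at 0 h and the 29th at 24 h. Reg3a stood at 215, 204, 211 and 159 CPM. No member passed 2-fold at 6 h, Reg3b and Reg4 passed it at 15 h, and Reg3b, Reg3g and Reg4 passed it at 24 h, where 1.3%, 2.6% and 5.44% of the genes with at least 5 CPM were at least 2-fold higher. At least 2-fold lower were 0.373%, 1.07% and 1.83% of genes and none of the members. Without the 10 cells richest in each gene, Reg3b passed 2-fold at 6 h (2.01) and Reg1 was 2.05-fold lower at 24 h.

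Reg4 came from few cells. It stood at 7.83, 7.28, 16.8 and 68.4 CPM at 0, 6, 15 and 24 h, 8.74-fold higher at 24 h than at 0 h, yet its share of cells with a UMI was 1.54% at 0 h and 3.97% at 24 h. At 24 h the 10 cells with most Reg4 held 75.7% of its UMIs, and a single cell held 608. At 0, 6 and 15 h the 10 richest cells held 26.2, 20.8 and 23.1%. Without the 10 richest cells of each library the levels were 5.79, 5.78, 12.95 and 16.7 CPM and the ratio at 24 h was 2.88. The other members were spread more widely, with 3.16 to 12.8% of their UMIs in the 10 richest cells.

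**Figure D3:**
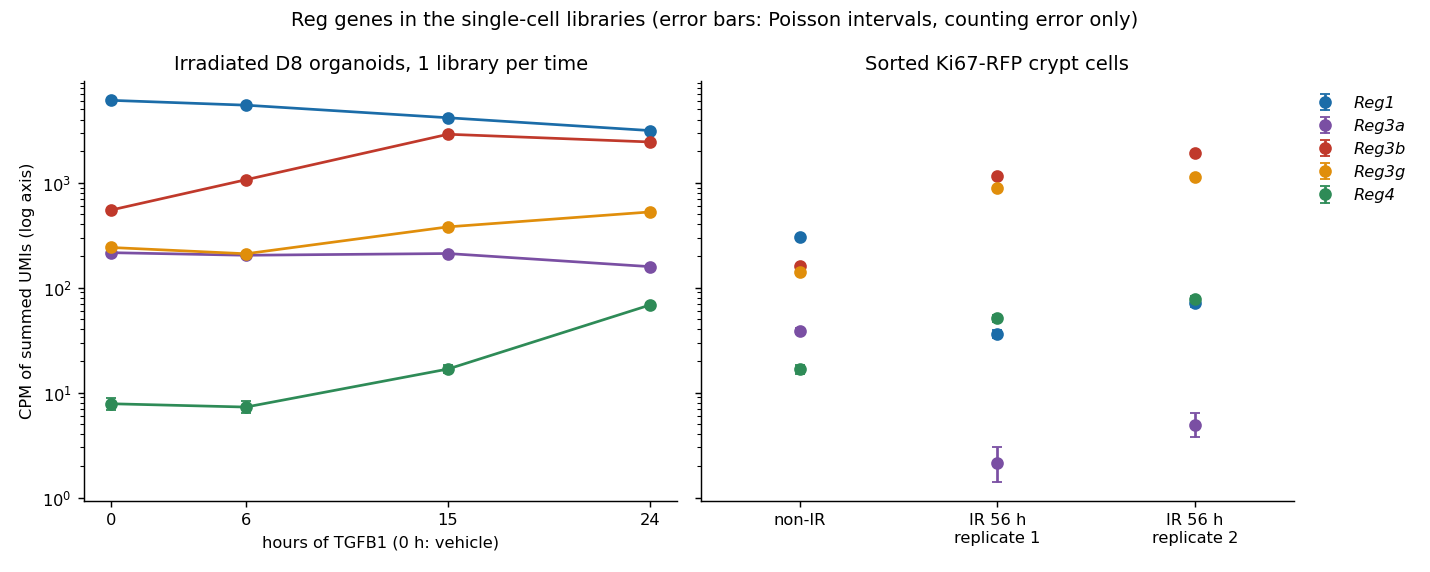
CPM of summed UMIs (log axis) of the 5 Reg genes by hours of TGFB1 in irradiated D8 organoids (left, 1 library per time, lines join the times) and in the 3 libraries of sorted Ki67-RFP+ crypt cells (right); bars are exact Poisson intervals, mostly smaller than the points. Reg3b goes from 549 to 2446 CPM over 24 h of TGFB1 in organoids and from 161 CPM in non-irradiated to 1165 and 1925 CPM in irradiated crypt cells, while Reg1 goes down in both.

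Clusters of organoid cells were made without the Reg genes and named from marker lists. Most Reg1 and Reg3b at 0 h came from the enterocyte-like cluster, 646 cells that held 64.8% of the Reg1 UMIs and 58.4% of the Reg3b UMIs. Within this cluster Reg3b stood at 1626, 3199, 8720 and 8426 CPM at 0, 6, 15 and 24 h, and Reg1 at 20025, 16789, 13292 and 9573 CPM. Higher Reg3b and lower Reg1 at later times were thus also seen within 1 cluster. Reg3g stood at 391, 447, 627 and 940 CPM there. The cluster shrank to 201 cells at 24 h, when an unnamed cluster led by Ctrb1 had grown from 30 to 567 cells. In that cluster Reg3b stood at 421, 1294, 4439 and 4607 CPM and Reg3g at 287, 452, 905 and 1255 CPM, and it held 62.6% of the Reg3g UMIs and 49.4% of the Reg3b UMIs at 24 h. The genes were low in the proliferating-like cluster, with Reg3b at 30.5, 100, 214 and 87.1 CPM and Reg1 at 385, 401, 315 and 139 CPM, and in the stem-like cluster, with Reg3b at 22.1, 27.7, 94.2 and 94.4 CPM.

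After thinning, 37.7% of proliferating-like cells and 96.9% of enterocyte-like cells had a Reg1 UMI at 0 h, at median depths of 11035 and 7973 UMIs before thinning. For Reg3b the shares were 4.71% and 55.4%. Free RNA gives UMIs in cells that do not express a gene, and whether the proliferating-like cells express Reg1 was not tested. At 24 h Reg4 was concentrated in an unnamed cluster led by Afp and Tff3, with markers of goblet and of enteroendocrine cells among its top genes. Its 69, 91, 65 and 76 cells read 83.3, 81.5, 220 and 3176 CPM and held 73.1% of all Reg4 UMIs at 24 h, most of them in the few cells described above.

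Which cells are called enterocyte-like depended on the resolution of the clustering. At resolution 1.0 the class moved to a cluster led by Ctrb1 that held no cell of the 0 h library and 82, 429 and 436 cells at 6, 15 and 24 h. Its Reg3b stood at 2061, 6455 and 7143 CPM and its Reg1 at 12504, 8008 and 7777 CPM at those times. The class at resolution 0.6 was led by Slc5a4b. At resolution 1.0 a cluster led by that gene had 523, 731, 262 and 15 cells at 0, 6, 15 and 24 h. It had a higher median fold of enterocyte markers than the Ctrb1 cluster. It stayed unnamed because this fold was under 3 and none of its top genes was a marker. The lack of a 0 h level for the class at resolution 1.0 thus comes from the naming rule. In the named class, Reg3b was higher and Reg1 lower at 24 h than at 6 h at both resolutions. From 15 to 24 h its Reg3b went down at resolution 0.6 and up at resolution 1.0. The stem-like class also changed, with 41, 127, 407 and 410 cells at 0, 6, 15 and 24 h at resolution 0.6. At resolution 1.0 it had 255, 341, 415 and 293 cells.

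**Figure D4:**
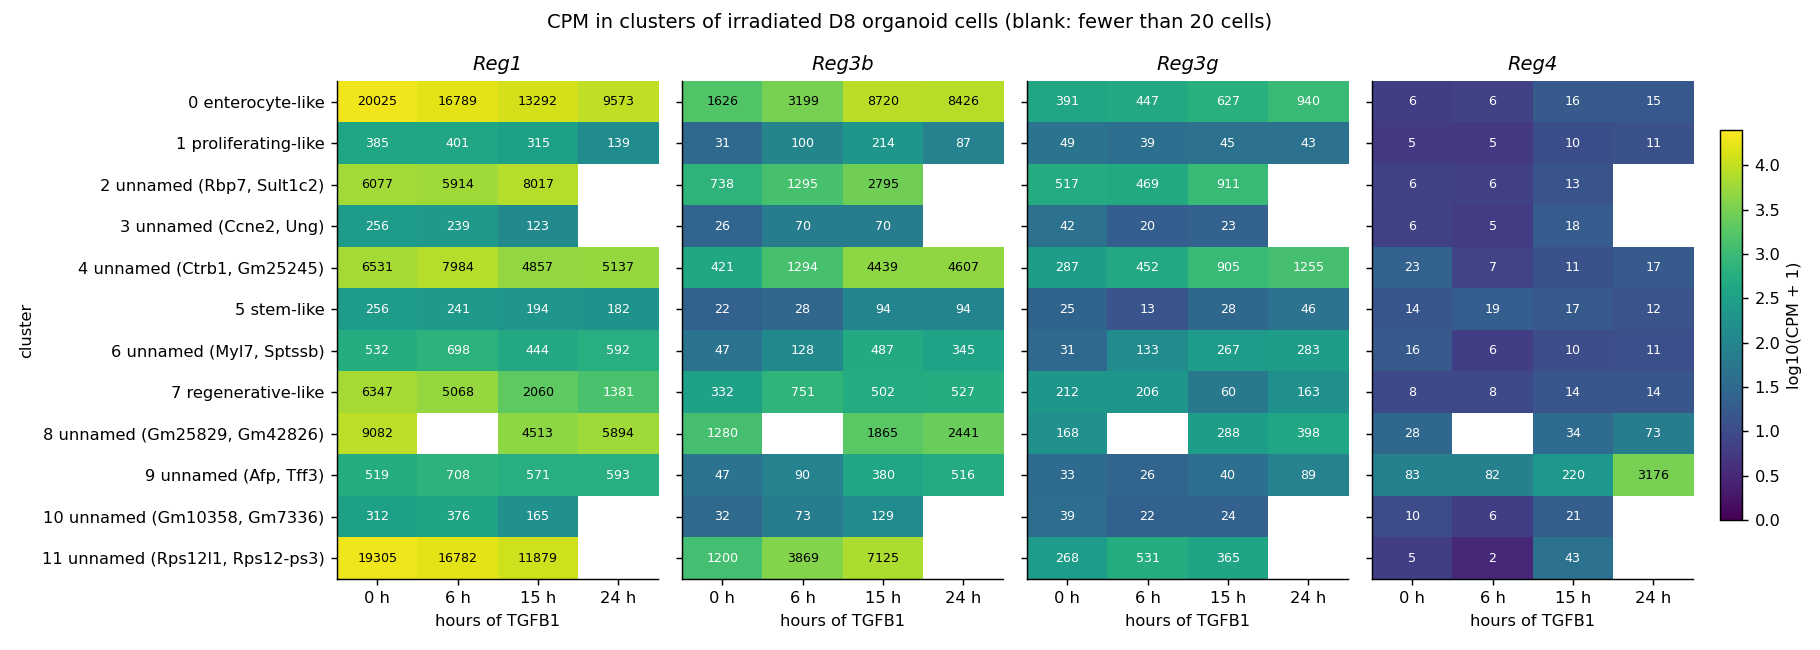
CPM of Reg1, Reg3b, Reg3g and Reg4 (numbers; colour is log10(CPM + 1)) in each cluster of irradiated D8 organoid cells (rows) by hours of TGFB1 (columns); blank fields had fewer than 20 cells. The enterocyte-like cluster 0 and the Ctrb1 cluster 4 carry most Reg3b, which reads 1626, 3199, 8720 and 8426 CPM in cluster 0, and Reg4 stands out at 3176 CPM in cluster 9 at 24 h.

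The direction in bulk and in single cells could be set side by side for irradiated organoids after 24 h of TGFB1, though day (7 and 8), dose (2 and 1 ng/mL) and assay differ. Reg3b was 2.16-fold higher in bulk and 4.45-fold higher in single cells, and Reg3g 1.71-fold and 2.181-fold higher. Reg3a was 1.29-fold and 1.36-fold lower. Reg1 overlapped between groups in bulk and was 1.94-fold lower in single cells.

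In sorted crypt cells 56 h after 12 Gy, Reg3b and Reg3g were several-fold higher than in non-irradiated crypt cells, and Reg1 and Reg3a were lower. The libraries held 1846 non-irradiated cells and 719 and 699 irradiated cells, with median depths of 11969, 14399 and 13500 UMIs. Reg3b stood at 161 CPM without irradiation and at 1165 and 1925 CPM with it, ratios of 7.24 and 12.0. Reg3g stood at 142 CPM and at 885 and 1129 CPM, ratios of 6.21 and 7.92. The shares of thinned cells with a UMI went from 7.75% to 41.0 and 43.9% for Reg3b and from 12.8% to 49.1 and 43.5% for Reg3g. Both irradiated libraries were on the same side of the non-irradiated one in every member, and with 1 non-irradiated library there was no test. Reg1 stood at 306 CPM and at 36.2 and 70.6 CPM, 8.43-fold and 4.32-fold lower. Reg3a stood at 38.7 CPM and at 2.11 and 4.94 CPM, 18.3-fold and 7.82-fold lower. The 10 cells richest in Reg1 held 45.0% and 64.1% of its UMIs in the irradiated libraries, and without the 10 richest cells of each library Reg1 was 11.4-fold and 8.84-fold lower. For Reg3a, with 29 and 61 UMIs in all, those cells held 65.5% and 52.5%, and without them it was 36.6-fold and 11.4-fold lower.

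Reg4 stood at 16.6 CPM and at 50.9 and 78.3 CPM, 3.06-fold and 4.72-fold higher, with 58.6%, 75.0% and 85.3% of its UMIs in the 10 richest cells. Without those cells it stood at 6.89, 12.96 and 11.7 CPM and did not reach 2-fold. In all, 3 members passed 2-fold upward and 2 downward in both irradiated libraries, as did 9.75% and 5.04% of 10319 genes, and the higher count was 2 without the richest cells. Of 12 enterocyte markers 4 were at least 2-fold lower in both irradiated libraries and none was that much higher, and the part of this in Reg1 and Reg3a was not tested.

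In non-irradiated crypts the lectins came mainly from enterocyte-like cells, which made up 15.2% of the sorted cells, in a cluster of 278 cells and another of 3. The 278 cells of the larger cluster held 58.5% of the Reg3b UMIs and 55.0% of the Reg3g UMIs, at 577 and 480 CPM. Over the whole library, the 10 cells richest in Reg3b held 43.8% of its UMIs, and for Reg3g the share was 29.5%. In the irradiated libraries these shares were 30.2 and 35.2% for Reg3b and 21.4 and 33.8% for Reg3g. Without those cells, Reg3b was 9.135-fold and 14.02-fold higher after irradiation, and Reg3g 7.055-fold and 7.616-fold. Which clusters those cells were in was not tested. The 755 stem-like cells, a cluster of the non-irradiated library alone, read 32.0 CPM of Reg3b and 32.7 CPM of Reg3g. This name depended on the resolution too. At resolution 1.0 only 239 crypt cells were stem-like, and a cluster of 460 cells led by Sfrp5 was unnamed. In irradiated crypts the largest part of the lectins came from a regenerative-like cluster that holds only irradiated cells (254 of 719 and 336 of 699 cells). Its Reg3b stood at 2093 and 2235 CPM and its Reg3g at 1538 and 1472 CPM, with 60.2 and 60.8% of all Reg3b UMIs of the 2 libraries. Over all cells, the 2 libraries read 1165 and 1925 CPM of Reg3b and 885 and 1129 CPM of Reg3g. Reg1 in the regenerative-like cluster, at 68.8 and 82.5 CPM, was far below that of the non-irradiated enterocyte-like cells (1212 CPM). A cluster of 32 enterocyte-like cells of the second irradiated library read 13340 CPM of Reg3b, 2352 CPM of Reg3g and 896 CPM of Reg1. With 1 library in the non-irradiated group, a cluster that holds cells of 1 group only cannot be told apart from its library.

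The goblet-like cluster was found in all 3 libraries (68, 38 and 20 cells). There Reg3b stood at 15.5, 292 and 171 CPM and Reg3g at 21.96, 220 and 235 CPM, higher after irradiation and lower than in the regenerative-like cells. Over all cells of these libraries, Reg3b stood at 161, 1165 and 1925 CPM and Reg3g at 142, 885 and 1129 CPM. Reg4 stood at 42.6, 954 and 2105 CPM in the goblet-like cluster, which held 86.4 and 78.8% of the Reg4 UMIs of the irradiated libraries. Few cells set these levels, since the 10 richest cells of each irradiated library held 75.0 and 85.3% of its Reg4 UMIs. A single cell held 123 of 699 UMIs in the first and 324 of 967 in the second. In the non-irradiated library 45.1% of the Reg4 UMIs were in 63 Paneth-like cells, at 445 CPM. Reg1, read in the same goblet-like cells, stood at 27.1, 3.16 and 2.76 CPM. The immune-like cells, which should lack these genes, were 2, 4 and 2, too few for a background share. The part of free RNA in the Reg3b, Reg3g and Reg1 levels of the goblet-like cells was thus not tested.

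**Figure D5:**
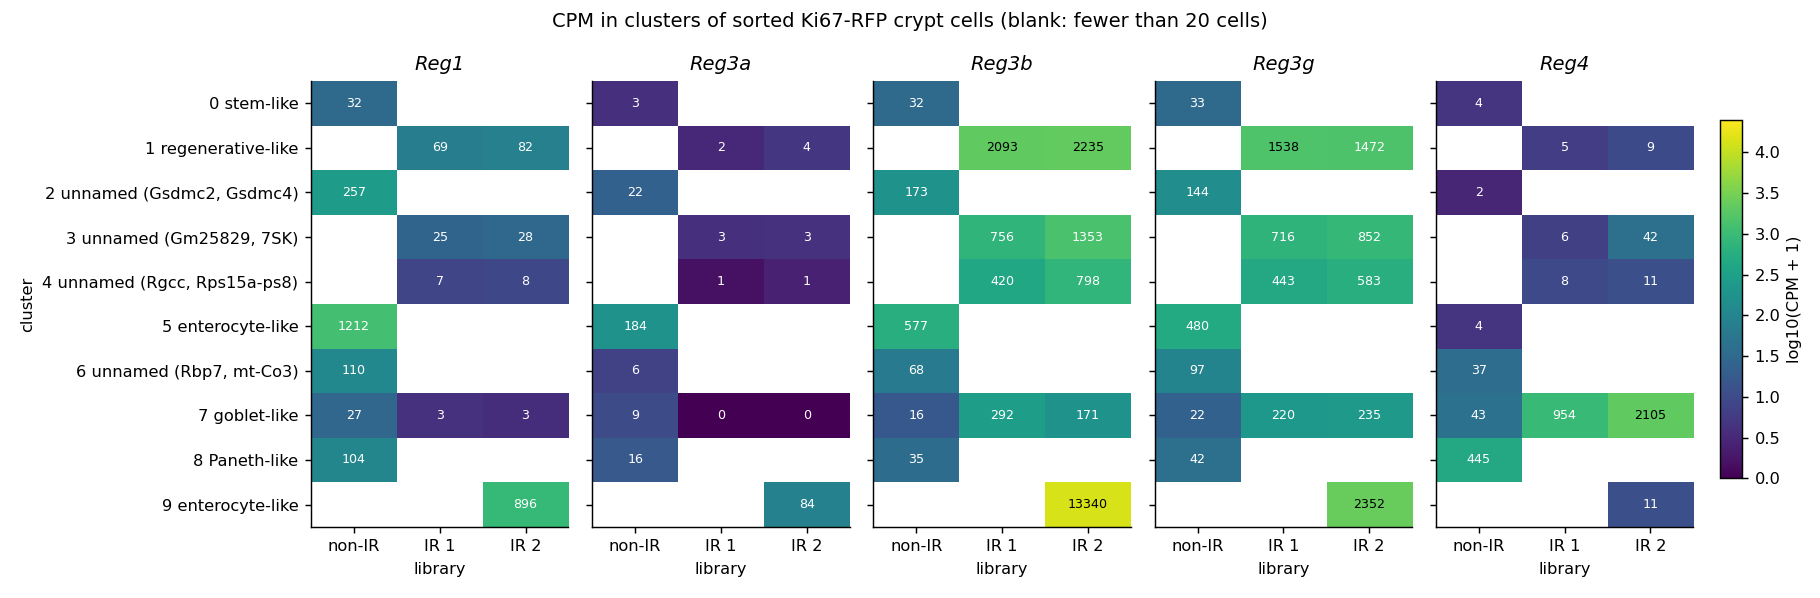
CPM of the 5 Reg genes (numbers; colour is log10(CPM + 1)) in clusters of sorted Ki67-RFP+ crypt cells (rows) in the non-irradiated library and the 2 libraries taken 56 h after 12 Gy (columns); blank fields had fewer than 20 cells. Reg3b is at 2093 and 2235 CPM in the regenerative-like cluster 1 and at 32 CPM in the stem-like cluster 0, and only the goblet-like cluster 7 has 20 or more cells in all 3 libraries.

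The same cells tended to carry both lectins. In thinned cells of irradiated crypts, 69.5% of the Reg3b-positive cells of the first library also had a Reg3g UMI, against 34.9% of the other cells, and in the second 63.2% against 28.1%. Reg1 UMIs were found in 7.46% and 8.79% of the Reg3b-positive cells, against 1.65% and 2.30% of the other cells. In organoids at 0 h, 90.5% of Reg3b-positive cells had a Reg1 UMI against 56.9% of the others, and at 24 h 75.3% against 40.8%. UMIs that the counting had split between genes made up at most 1.11% of any member's UMIs in a library and none of those of Reg3a, Reg3b and Reg3g.

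Genes of the induction route were measured in the same crypt libraries. Of 12 receptors and signalling genes 2 were at least 2-fold higher in both irradiated libraries, among them Stat3 (19.4 CPM, then 50.0 and 53.5 CPM). Of 9 STAT3 and interleukin 22 target genes 5 were, among them Duox2 (2.72 CPM, then 29.6 and 22.9 CPM), Duoxa2 (3.92 CPM, then 31.2 and 23.3 CPM) and Il4ra (6.64 CPM, then 23.2 and 24.1 CPM). Of 17 antimicrobial genes 2 were higher (Pglyrp1 and Pla2g2a) and 10 lower, where 9.75% of all genes were higher and 5.04% lower. The 10 were 8 alpha-defensins, which are Paneth cell products, with Lypd8 and Pigr. Paneth-like cells numbered 63 in the non-irradiated library and 4 and 4 in the irradiated ones, and their part in these counts was not tested.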

How the data were processed

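Bulk RNA values are FPKM per gene and library, deposited by the authors in 3 tables of 23951 genes and 6 libraries. Read depth is unknown, since the tables give no counts, and library sums ran from 447728 to 621996 FPKM. The deposited single-cell matrices are expected counts, since some UMIs are fractional (PIPseq T2 chemistry, per the labels' protocols). The submitters' processing notes list TopHat2 2.1.0, Cuffnorm 2.2.1 and STARsolo with STAR 2.7.10a, without saying which file each made. No column was left unmapped (0).

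Log2(FPKM + 1) was fitted with limma 3.58.1 (trend, robust; R 4.3.3) per table, and over 12 libraries for interactions, for genes averaging 1 FPKM or more, two-sided, with Benjamini-Hochberg adjustment over all genes tested (called under 0.05). On simulated data it recovered 195, 196 and 183 of 200 changed genes in the D7 non-IR, D7 IR and D11 designs, with 6, 8 and 8 false calls. Each changed gene was given a change of the same size. Recovery of smaller changes, or with most genes changed, was not tested. The labels do not say whether replicates came from separate cultures, so p-values measure the spread between these libraries, which may be technical. Cells needed 500 UMIs, 250 genes and a mitochondrial share no higher than 20%, and were clustered with scanpy 1.11.5 and leidenalg 0.10.2 (2000 variable genes without Reg genes, 30 components, 15 neighbours, resolution 0.6). A cluster was named from markers with a median fold of at least 2 and, where none of its top genes was a marker, at least 3, a limit chosen after the data were seen. No doublet caller was run, and 1 barcode was shared in each of 2 pairs of libraries. Shares of cells were taken after thinning to 2000 UMIs, with 3 shallower cells left out at 6 h. Intervals are 95% (exact Poisson for CPM, Clopper-Pearson for shares).

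Members and lists were chosen with earlier results of these data known. By the rule for named genes, each list gives its 3 largest called changes per contrast and each member its 3 most correlated genes; single-cell examples and a second look at genes named in another contrast were chosen after their values were seen. ATAC peaks from the 18 ATAC libraries are not used here: their positions, deposited by the authors, met only 2.62 to 4.51% of RefSeq GRCm38.p6 promoter windows, so the builds appear to differ.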

Additional observations from a re-analysis of the deposited data

Results flagged for a closer look

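Effects of TGFB1 that differed between conditions by an interaction term stand here with their size. Between irradiated and non-irradiated D7 organoids the log2 change with TGFB1 differed (IR minus non-IR) by 1.96 for Reg3g, 1.80 for Reg3b, 1.64 for Reg1, 1.32 for Reg3a and 0.30 for Reg4. Reg3g and Reg3b moved in opposite directions in the 2 conditions and Reg4 rose in both. Reg1 and Reg3a fell in the non-irradiated organoids, and in the irradiated ones Reg1 was not called and Reg3a fell by 0.36. Between D11 and D7 irradiated organoids the difference (D11 minus D7) was -2.34 for Reg3g and -1.21 for Reg4, both of which were higher with TGFB1 at D7 and lower at D11.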

How the results depend on the processing

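Of 729 alternative values for the bulk results, 716 counted as unchanged. For tests of members this meant the same direction and side of the threshold. The 729 also take in untested ratios between groups and counts of called genes, which were judged by their size. Every value that changed was a test of a member, most of them at D11. Quantile normalization turned Reg1 in D7 IR organoids to -0.23 and took Reg4 at D11 to -0.22 (adjusted p = 0.152). Fitting all 18 libraries together ended the calls for Reg3a in D7 IR organoids (-0.36, adjusted p = 0.191) and for the irradiation interaction of Reg4 (0.30, adjusted p = 0.0839), and made Reg3a at D11 a call (-0.59, adjusted p = 0.0402). The cause was not tested. Replicate numbers did not pair the libraries (correlations of same-numbered deviations from -0.0856 to 0.213, 5 of 9 highest with their own number), and with the replicate block Reg3a at D11 was called (-0.59, adjusted p = 0.0113), with no other call changed. Leaving out 1 library at a time gave 0.046 to 0.50 for Reg1, -0.80 to -0.27 for Reg3a, 1.25 to 1.80 for Reg3b and -0.57 to -0.35 for Reg4 at D11, and -0.011 to 0.44 for the day interaction of Reg1. Without the 10 richest cells (chosen after seeing the data), 1 member was at least 2-fold higher at 6 h and 1 at least 2-fold lower at 24 h, against 0 and 0. Thinning to 1000 UMIs moved 32 of 35 shares, and resolution 1.0 moved 52 of 110 levels by class, beyond their counting error. A share of cells with a UMI falls with depth by construction. The count for thinning thus does not show whether differences between libraries hold.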

Other observations

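Reg4 gave unlike levels in the 2 assays. In D7 IR vehicle organoids its bulk level of 208 FPKM was close to the 194 FPKM of Reg3g, whereas in irradiated D8 vehicle organoids Reg4 had 214 UMIs (7.83 CPM) and Reg3g 6602 UMIs (241 CPM) over 2932 cells. UMIs are not per length, and day and chemistry differ, so the values are set side by side without a comparison.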
